A study of Mus musculus with 13 samples.

Results

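The transcriptome of the untreated Rpe65-/- retina was compared with that of the wild-type retina in 8 of the 13 bulk RNA-seq libraries of the study, chosen by their labels: 4 from Rpe65-/- mice kept on the vehicle diet and 4 from wild-type mice. Rpe65-/- mice carry a null allele of Rpe65 in every cell and model an inherited blindness of early life, Leber congenital amaurosis. The vehicle mice remained on base diet without drug, had an electroretinogram recorded under ketamine and xylazine, and were euthanized on postnatal day 64. The wild-type mice were C57BL/6J animals of 2 months that shared the housing, received the same anesthesia and, by their labels, the same base diet, but no drug. Each library came from 1 retina of 1 mouse, freed of the anterior chamber and lens and lifted out of the eye cup. The Rpe65-/- line is labelled as C57BL/6J, whereas the study's reporting form leaves its exact background unknown and takes it to be mainly C57BL/6J, so that effects of the lost gene and of other alleles of the line cannot be told apart. Libraries are named by group, labelled sex and number, and sets of 4 values follow the order F1, F2, M4, M5 in the vehicle group and M1, M2, F3, F4 in wild type. The design text counts 3 wild-type mice while labels and table hold 4, and all 4 were used.

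Nuclear counts per library lay between 13785109 and 16408151 in the vehicle group and between 13512155 and 16449989 in wild type, and the most that a gene listed at 0 could have had, 3 counts, equals 0.183 to 0.218 counts per 1000000 nuclear counts (CPM) in vehicle libraries and 0.182 to 0.222 CPM in wild type. Rpe65 itself (chr3:159599175-159625321, GRCm38) had 6, 8, 6 and 1 counts in the vehicle libraries, against 106, 226, 135 and 72 in wild type, a log2 fold change of -4.73 ± 0.52 (SE, edgeR adjusted p = 2.74e-05, n = 4 and 4). No vehicle library reached the lowest wild-type count. Defining markers of rods, cones, bipolar, amacrine and ganglion cells, Müller glia and microglia were present in all 8 libraries. The library labelled vehicle F2 went against its labelled sex, female, with 0.0659 CPM of Xist and 92.2 CPM of the Y-linked gene Eif2s3y, and results that turn on it are given without it. Wild type F4 stood apart from its group. It lay at 7.42 on the first principal component (51.8% of the variance), with the vehicle libraries at 25 to 44.9 and the other wild-type libraries at -60.6 to -48.0. Lens crystallin transcripts, from a tissue that dissection removes, summed to 478, 8.1, 3172 and 94.5 CPM in vehicle libraries and 5.18, 3.22, 660 and 1281 CPM in wild type, and 0 of 13 genes of the lens list passed the test (edgeR).

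RPE65 is the isomerase of the retinal pigment epithelium that regenerates 11-cis-retinal, the chromophore that opsins need to catch light. In both rods and cones the activated opsin switches on a transducin, which releases a phosphodiesterase to hydrolyse cyclic GMP and so close a cation channel, and arrestin ends the signal. Rods and cones build this cascade largely from separate paralogous genes. Without chromophore cone opsins are known to be mislocalised and cones to be lost early, while rods persist for longer.

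The promoters of the genes that marked this comparison most clearly are shown first, as 250 bases before to 50 bases after the RefSeq transcription start (GRCm38.p6), each read 5′ to 3′ on the strand of its gene. Capitals in the first 4 mark TAATC on either strand, the core letters bound by the photoreceptor homeodomain factor CRX, which occurred in 22% of 32851 mouse promoter windows of that length. Opn1sw and Pde6h are shown as the cone genes with the strongest fall, Gnat2 as the cone gene with the tightest estimate, and Sag because it rose. Opn1sw (chr6:29380464-29380763, minus strand) and Gnat2 (chr3:108092816-108093115, plus strand) held 1 match each, at -49 and -18 from the start, Sag (chr1:87803430-87803729, plus strand) held 2, and Pde6h (chr6:136954273-136954572, plus strand) held 0, so that matches did not follow the direction of change in these 4 genes.
Opn1sw: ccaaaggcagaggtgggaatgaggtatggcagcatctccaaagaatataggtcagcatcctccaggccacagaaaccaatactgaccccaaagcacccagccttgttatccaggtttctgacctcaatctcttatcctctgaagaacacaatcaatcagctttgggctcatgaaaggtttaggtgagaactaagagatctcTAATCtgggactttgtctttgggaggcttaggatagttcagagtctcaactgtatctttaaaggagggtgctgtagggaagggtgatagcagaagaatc
Pde6h: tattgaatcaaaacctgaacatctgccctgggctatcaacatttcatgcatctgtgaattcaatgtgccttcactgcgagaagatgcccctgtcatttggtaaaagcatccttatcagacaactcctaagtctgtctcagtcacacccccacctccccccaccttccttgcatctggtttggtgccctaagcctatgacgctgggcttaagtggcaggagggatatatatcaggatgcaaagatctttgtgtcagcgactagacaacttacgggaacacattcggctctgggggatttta
Gnat2: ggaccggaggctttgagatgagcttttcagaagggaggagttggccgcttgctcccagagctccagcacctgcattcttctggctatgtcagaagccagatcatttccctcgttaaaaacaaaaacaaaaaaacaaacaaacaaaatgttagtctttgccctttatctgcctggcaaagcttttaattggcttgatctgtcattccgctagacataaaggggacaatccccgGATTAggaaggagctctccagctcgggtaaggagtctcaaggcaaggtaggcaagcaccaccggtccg
Sag: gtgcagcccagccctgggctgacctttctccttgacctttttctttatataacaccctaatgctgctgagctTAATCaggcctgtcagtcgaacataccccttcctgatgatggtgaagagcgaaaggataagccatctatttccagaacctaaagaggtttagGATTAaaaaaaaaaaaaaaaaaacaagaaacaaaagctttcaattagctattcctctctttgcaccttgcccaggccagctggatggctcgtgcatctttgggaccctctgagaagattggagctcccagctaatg
Gfap (chr11:102897151-102897450, minus strand), the gliosis gene that leads its list with Edn2 and Stat3, is shown with capitals at TTCNNNGAA, a letter pattern of STAT sites that reads alike on both strands and occurred in 8.3% of windows. The match began at -2 from the start. The windows of Edn2, Osmr and Stat3 held 0 matches. These matches describe letters only.
Gfap: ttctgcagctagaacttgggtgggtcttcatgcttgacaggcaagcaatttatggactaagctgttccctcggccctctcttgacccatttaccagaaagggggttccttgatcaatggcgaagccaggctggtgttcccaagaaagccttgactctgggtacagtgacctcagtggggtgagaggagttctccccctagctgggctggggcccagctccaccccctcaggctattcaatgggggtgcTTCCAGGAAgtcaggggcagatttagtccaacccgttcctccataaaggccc

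Of 16782 genes tested, 5697 (33.9%) changed between vehicle and wild type at an edgeR adjusted p under 0.05, of which 2629 (15.7%) were higher and 3068 (18.3%) lower. Most shifts were small. Changes of at least 2-fold were found for 856 genes (452 higher and 404 lower), of at least 4-fold for 193 (110 higher and 83 lower) and of at least 8-fold for 99 (67 higher and 32 lower). The median log2 fold change over all genes was 0.0166, with quartiles of -0.32 and 0.341. The count depended on single libraries. Without wild type F4 9508 of 17092 genes (55.6%) were called, and without any other wild-type library 2849 to 3066. It was 3152 without vehicle F1 and 3389 without vehicle M5. The direction of change also followed the GC content of the transcripts in most libraries, and once the GC trend of each library had been removed 3261 genes (19.4%) were called. Counts after this removal are given beside many of the lists. A core of 918 genes (5.47%; 334 higher and 584 lower) was called in the same direction in 19 other settings, a test against a fold change of 1.2 left aside, and 215 of these changed at least 2-fold (112 higher and 103 lower). Against a fold change of 1.2, 1636 genes (9.75%) passed. The 4 vehicle values and the 4 wild-type values did not overlap for 3258 genes (19.4%), of which 2373 (14.1%) were higher and 885 (5.27%) lower. Overlap was judged on CPM, which are not scaled by the TMM normalisation factors of the test. Those factors were 0.9926 to 1.036 in vehicle libraries and 0.9482 to 0.9755 in wild type. Relative to the tested levels, CPM therefore lean toward higher values in vehicle libraries. A gene list with a called share near or under 33.9% does not stand apart from all genes in its count. List counts without wild type F4 are to be read against 55.6%, and those with the GC trend removed against 19.4%. In bulk retina, fewer cells of a type and less RNA per cell cannot be told apart. Some genes overlap a neighbour in the deposited coordinates, and with the strand setting of the counting not given their reads may be shared. Among genes named below this holds, for example, for Opn1sw (Calu), Pde6h (Arhgdib), Gngt2 (Abi3), Stat3 (Stat5a), Rdh5 (Bloc1s1), Il18 (Bco2 and Tex12), Bbs12 (Cetn4), Cyp51 (Akap9), Rgs11 (Arhgdig), and Lipo2 (Lipo3).

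**Figure D1:**
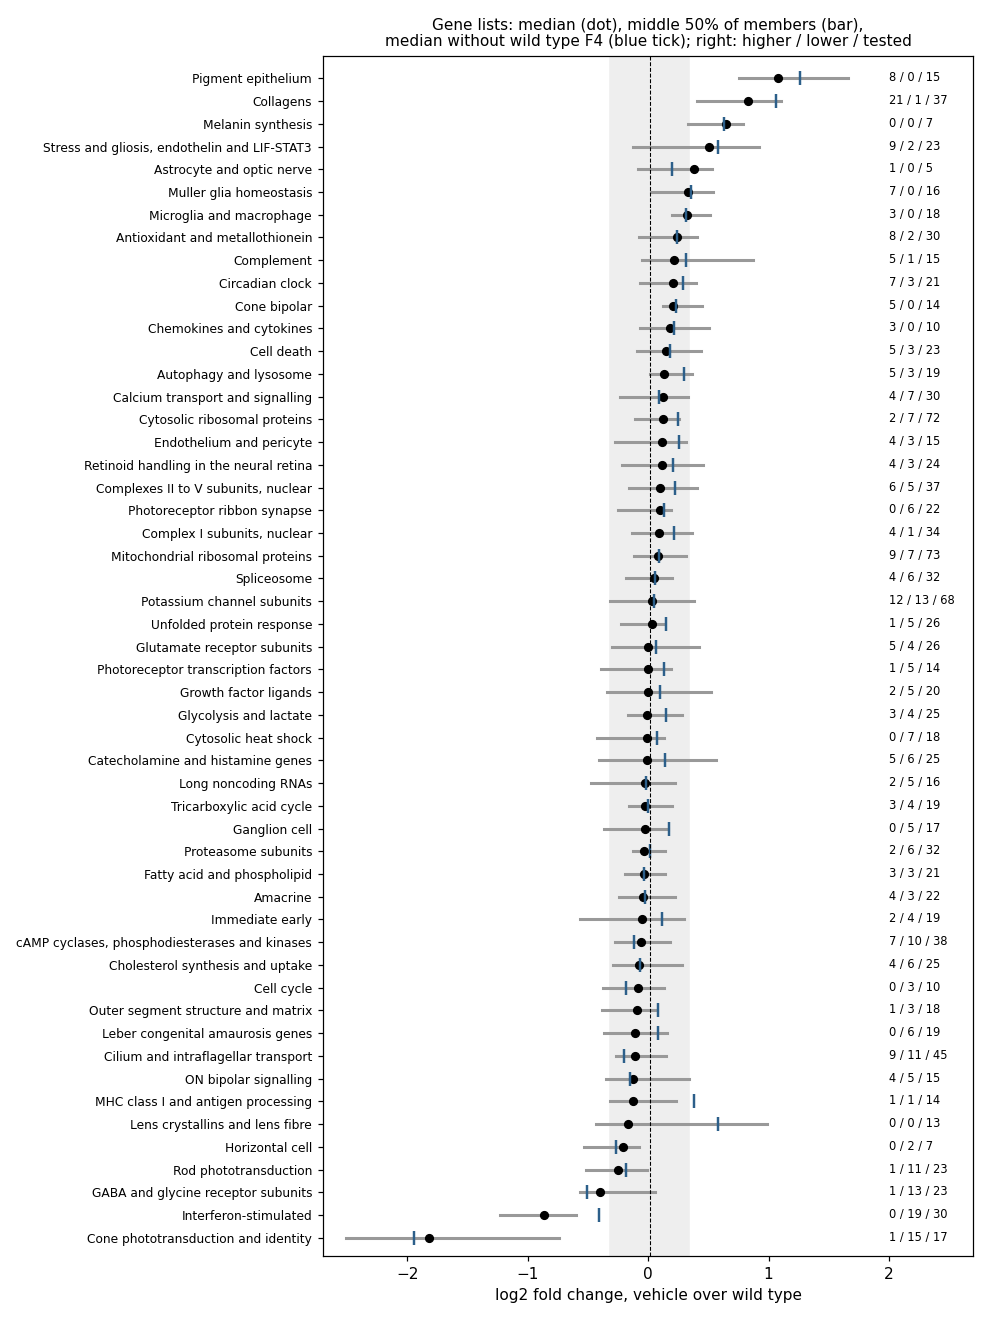
Median log2 fold change, vehicle over wild type, of the members of each gene list with 5 or more genes tested (dot), with the range of the middle 50% of members (grey bar), the median without wild type F4 (blue tick), and the numbers higher, lower and tested at the right. The shaded band spans the quartiles of all tested genes (-0.32 to 0.341), and the cone list, at -1.82, lies farthest below it while the pigment epithelium list, at 1.08, lies farthest above.

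Cone transcripts fell as a group. Of 17 genes for cone phototransduction and identity, 15 were lower and 1 was higher, with a median log2 fold change of -1.82 against 0.0166 over all genes, and 12 of the lower genes and the higher one were called in these 19 settings as well. Summed over the list, cone transcripts made up 987, 972, 1012 and 839 CPM in vehicle libraries, against 2071, 2096, 2019 and 2108 CPM in wild type. The sums did not overlap, and those of both groups were tight. The single gene that rose, Gnb3, accounted for a large part of what remained in the vehicle libraries.

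Both cone opsins fell, to different depths. Opn1sw, the short-wavelength opsin, had 17.5, 9.55, 3.26 and 6.12 CPM in vehicle libraries, against 346, 356, 360 and 373 CPM in wild type (log2 fold change -5.38 ± 0.35, edgeR adjusted p = 8.02e-08). Opn1mw, the middle-wavelength opsin, had 34.5, 28.7, 26.3 and 20.2 CPM in vehicle libraries, against 155, 133, 126 and 164 CPM in wild type (-2.49 ± 0.19, edgeR adjusted p = 3.91e-07). Opn1sw was thus the more abundant opsin transcript of the pair in every wild-type library and the less abundant in every vehicle library, in counts not scaled for length. Vehicle F1 kept the most of both opsin transcripts.

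Downstream of the opsins, both phosphodiesterase genes fell more steeply than the other downstream genes of the cone list, and transducin alpha fell too. Gnat2, transducin alpha, had 43.3, 36.2, 29.5 and 38.4 CPM in vehicle libraries, against 183, 183, 179 and 175 CPM in wild type (-2.38 ± 0.11, edgeR adjusted p = 1.23e-09). Pde6c, the catalytic subunit of the cone phosphodiesterase, had 21.8, 20.4, 13.9 and 12 CPM in vehicle libraries, against 159, 147, 145 and 119 CPM in wild type (-3.15 ± 0.19, edgeR adjusted p = 3.95e-08). Pde6h, its inhibitory subunit, had 8.41, 14.4, 5.73 and 5.55 CPM in vehicle libraries, against 165, 170, 130 and 149 CPM in wild type (-4.25 ± 0.25, edgeR adjusted p = 2.62e-08). None of these groups overlapped, and the lowest wild-type value stood several-fold above the highest vehicle value for each gene.

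The cone channel, the cation exchanger and the arrestin were lower as well. Cnga3 (-2.51 ± 0.24, edgeR adjusted p = 6.21e-06) and Cngb3 (-1.82 ± 0.20, edgeR adjusted p = 2.52e-05), the channel subunits, fell, although wild type F4 had only 18.8 CPM of Cngb3 where its group reached 34.3 to 37.3 CPM, and the vehicle libraries lay at 7.25 to 11 CPM. Slc24a2, the cone exchanger of sodium, calcium and potassium, also fell (-0.83 ± 0.13, edgeR adjusted p = 0.000502). Arr3, cone arrestin, had 50.6, 54.3, 52.3 and 36.5 CPM in vehicle libraries, against 242, 308, 225 and 302 CPM in wild type (-2.56 ± 0.18, edgeR adjusted p = 1.65e-07). Kcne2, an accessory potassium channel subunit, had 19.1, 18.8, 16.2 and 19.6 CPM in vehicle libraries, against 72.7, 59.8, 67.6 and 60.8 CPM in wild type (-1.91 ± 0.12, edgeR adjusted p = 4.1e-08). Thrb, the thyroid hormone receptor of cones, averaged 80.8 ± 10.3 CPM in vehicle libraries and 127 ± 23.2 CPM in wild type (SD, n = 4 each; -0.74 ± 0.12, edgeR adjusted p = 0.00113), and was named after its value was seen. Rxrg, its partner in setting opsin choice, averaged 6.36 ± 1.28 CPM in vehicle libraries and 7.97 ± 1.58 CPM in wild type (SD, n = 4 each) and missed the threshold (edgeR adjusted p = 0.0995); it too was named after its value was seen. Across the cone list the size of the fall therefore differed widely between genes. The part of RNA from other cell types in these differences was not tested.

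Transducin beta and gamma behaved unlike the rest of the cascade. Gnb3, transducin beta of cones and ON bipolar cells, had 466, 462, 563 and 386 CPM in vehicle libraries, against 238, 239, 228 and 314 CPM in wild type (0.79 ± 0.13, edgeR adjusted p = 0.000802). Gngt2, cone transducin gamma, had 14.4, 10.1, 10.9 and 12.7 CPM in vehicle libraries, against 18, 16.0, 15.9 and 43.3 CPM in wild type (-1.05 ± 0.27, edgeR adjusted p = 0.0117). Neither pair of groups overlapped. Wild type F4 held the highest Gngt2 value, and without it the log2 fold change was -0.56.

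**Figure D2:**
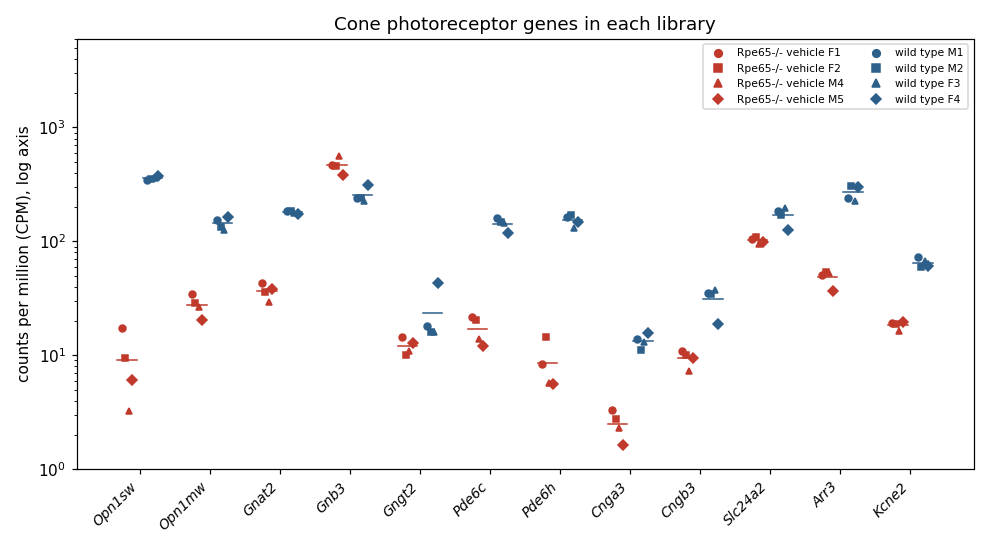
CPM of 12 cone photoreceptor genes in each library on a log axis, with the Rpe65-/- vehicle libraries (red, left) and the wild-type libraries (blue, right) side by side and a line at each group mean. Opn1sw lies at 3.26 to 17.5 CPM in vehicle and 346 to 373 CPM in wild-type libraries, and Gnb3 is the gene in the plot with all vehicle points above all wild-type points.

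Cone genes were also set against their rod counterparts, and the ratios separated the groups for most pairs but not for all. For the inhibitory phosphodiesterase subunits, Pde6h counts per 100 Pde6g counts were 0.534, 0.819, 0.356 and 0.35 in vehicle libraries, against 13, 12.7, 10.8 and 7.08 in wild type. Pde6g itself averaged 1631 ± 82.8 CPM in vehicle libraries and 1479 ± 417 CPM in wild type (SD, n = 4 each), a difference that missed the threshold (edgeR adjusted p = 0.783; 0.00946, with higher levels in vehicle libraries, without wild type F4). Arr3 counts per 100 Sag counts were 0.537, 0.554, 0.54 and 0.386 in vehicle libraries, against 6.4, 8.92, 5.79 and 6.39 in wild type, a gap widened from both sides since Sag rose. The exchanger pair lay nearer together, with 7.22, 6.08, 6.06 and 6.58 Slc24a2 counts per 100 Slc24a1 counts in vehicle libraries, against 10.9, 10.3, 11.6 and 6.29 in wild type, where F4 fell inside the vehicle range. The transducin gamma pair overlapped as well. Gngt2 counts per 100 Gngt1 counts were 1.52, 0.897, 1.14 and 1.28 in vehicle libraries, against 1.31, 1.28, 1.1 and 3.85 in wild type. The ratio ran the other way for transducin beta, with 7.61, 6.48, 8.93 and 6.17 Gnb3 counts per 100 Gnb1 counts in vehicle libraries, against 3.63, 3.84, 3.74 and 5.08 in wild type.

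**Figure D3:**
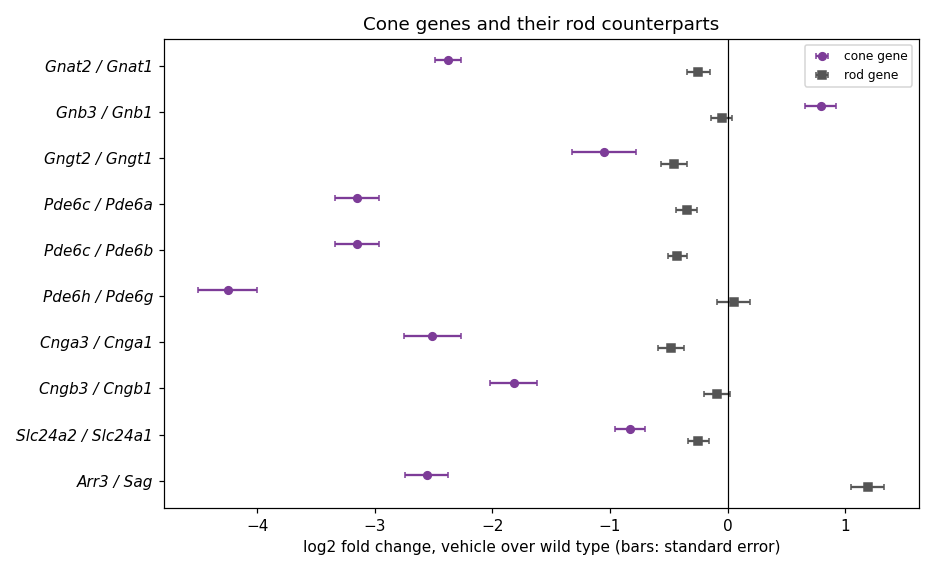
Log2 fold change, vehicle over wild type, with its standard error, for 10 pairs of cone gene (circle) and rod counterpart (square). The cone genes spread between -4.25 and 0.79 and the rod genes between -0.48 and 0.05, apart from Sag at 1.19.

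Rod transcripts changed far less in size. Of 23 rod phototransduction genes 11 were lower and 1, Sag, was higher, with a median of -0.248; without wild type F4 11 were lower and 5 higher, and with the GC trend removed 15 and 1. Pdc, which encodes phosducin, a buffer of transducin beta and gamma, and was named after its values were seen, had 1785, 2109, 1871 and 1873 CPM in vehicle libraries, against 3733, 3411, 3742 and 2537 CPM in wild type (-0.90 ± 0.13, edgeR adjusted p = 0.000442). Grk1, the receptor kinase of the rod cascade (-0.59 ± 0.08), Rgs9bp, the anchor of the GTPase-activating complex (-0.55 ± 0.07), and Pde6b, a catalytic phosphodiesterase subunit (-0.43 ± 0.08), fell with groups that did not overlap (edgeR adjusted p between 0.000177 and 0.00282). Pde6a, the other catalytic subunit, fell by a similar amount (-0.35 ± 0.09, edgeR adjusted p = 0.012), though wild type F4, at 3040 CPM, lay below vehicle F2 at 3104 CPM. Gnat1, rod transducin alpha, averaged 10972 ± 807 CPM in vehicle libraries and 12266 ± 1665 CPM in wild type (SD, n = 4 each; edgeR adjusted p = 0.0747). Of the rod cascade genes named here, then, Gnat1, Gnb1, Pde6g, Cngb1 and Slc24a1 missed the threshold, while Pdc, Grk1, Rgs9bp, Pde6b and Pde6a fell. Other lower genes of the list are not named here. The part of cone RNA in the values of the rod list was not tested. Without vehicle F2, the highest library of its group for Gnat1 and Slc24a1, these 2 genes were lower (-0.32, edgeR adjusted p = 0.0357, and -0.33, edgeR adjusted p = 0.0135).

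Sag, rod arrestin, which helps to end the light signal, went against its list. It had 9429, 9807, 9694 and 9437 CPM in vehicle libraries, against 3787, 3450, 3882 and 4723 CPM in wild type (1.19 ± 0.14, edgeR adjusted p = 6.51e-05). The vehicle values spanned a narrow range, all above every wild-type value. As a share of nuclear counts, Sag took 0.959 ± 0.0189% in vehicle and 0.396 ± 0.0541% in wild-type libraries (SD, n = 4 each).

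Genes of the outer segment and of photoreceptor identity moved in both directions. Impg2, a proteoglycan of the interphotoreceptor matrix, had 1136, 1584, 1441 and 1196 CPM in vehicle libraries, against 729, 678, 796 and 533 CPM in wild type (0.88 ± 0.13, edgeR adjusted p = 0.000536). It was the 1 higher gene of 18 in its list, where 3 were lower, against 3 higher and 5 lower without wild type F4 and 1 higher and 9 lower with the GC trend removed. Of 14 photoreceptor transcription factors 5 were lower and 1 higher, and 5 were lower and 5 higher without wild type F4 (6 and 2 with the GC trend removed, when the median was -0.303 in place of -0.00236). Crx, the homeodomain factor of rods and cones, had 990, 1113, 1054 and 1028 CPM in vehicle libraries, against 1299, 1386, 1370 and 1224 CPM in wild type (-0.42 ± 0.08, edgeR adjusted p = 0.00227). Mef2c, a MADS-box factor, had 97.3, 131, 117 and 111 CPM in vehicle libraries, against 288, 259, 286 and 175 CPM in wild type (-1.23 ± 0.16, edgeR adjusted p = 0.000137). Neither factor had overlapping groups. Rorb, a nuclear receptor upstream of rod fate (-1.0 ± 0.20, edgeR adjusted p = 0.004), and Neurod1, a factor of photoreceptor survival (-0.79 ± 0.15, edgeR adjusted p = 0.00222), fell as well, but wild type F4, with 260 CPM of Rorb and 333 CPM of Neurod1, lay inside the vehicle range of both. Nrl, the factor that sets rod fate, averaged 1510 ± 80.2 CPM in vehicle libraries and 1698 ± 366 CPM in wild type (SD, n = 4 each), missed the threshold (edgeR adjusted p = 0.096) and was named after its value was seen. Wild type F4 held 2243 CPM of Nrl. The other wild-type libraries, at 1456 to 1554 CPM, lay inside the vehicle range of 1418 to 1610 CPM.

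Retinoid genes of the photoreceptors shifted in a mixed way. Of 24 genes for retinoid handling in the neural retina 4 were higher and 3 lower, or 10 and 4 without wild type F4 and 3 and 5 with the GC trend removed. Rdh8, an outer-segment dehydrogenase that reduces all-trans-retinal, had 143, 140, 137 and 134 CPM in vehicle libraries, against 75.8, 77.3, 79.6 and 109 CPM in wild type (0.61 ± 0.10, edgeR adjusted p = 0.00133). Rdh12, which carries out a like reduction in the inner segment, averaged 295 ± 24.0 CPM in vehicle libraries and 372 ± 31.4 CPM in wild type (SD, n = 4 each; -0.43 ± 0.08, edgeR adjusted p = 0.00303). Rdh11, a related enzyme, averaged 49.8 ± 5.46 CPM in vehicle libraries and 68.1 ± 3.74 CPM in wild type (SD, n = 4 each; -0.54 ± 0.09, edgeR adjusted p = 0.00125). The groups did not overlap for any of these enzymes. Among 45 genes of the cilium and intraflagellar transport, which supply the outer segment, 9 were higher and 11 lower. Of the 4 with the smallest adjusted p, Bbs7, a subunit of the BBSome that traffics ciliary membrane cargo, had 99.8, 109, 103 and 94.1 CPM in vehicle libraries, against 220, 224, 240 and 175 CPM in wild type (-1.17 ± 0.12, edgeR adjusted p = 9.18e-06), and Bbs12, a chaperonin-like factor of BBSome assembly, fell by 0.63 ± 0.10 on the log2 scale (edgeR adjusted p = 0.000788). With GC trends removed 5 genes of the list were higher and 2 lower, and without wild type F4 15 were higher and 22 lower.

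At the photoreceptor terminal, 6 of 22 ribbon synapse genes were lower and 0 higher, but without wild type F4 8 were lower and 9 higher. Stx3, the syntaxin of ribbon synapses, had 438, 677, 442 and 453 CPM in vehicle libraries, against 1038, 1013, 981 and 789 CPM in wild type (-1.01 ± 0.14, edgeR adjusted p = 0.000279). Rims2, an active-zone scaffold, fell less (-0.51 ± 0.12, edgeR adjusted p = 0.00842), with wild type F4 at 331 CPM inside the vehicle range of 295 to 364 CPM. Stx3 groups did not overlap, and vehicle F2 was the highest of its group.

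Among second-order neurons, ON bipolar signalling genes split, with 4 higher and 5 lower of 15. Grm6, the glutamate receptor that ON bipolar cells use to sense photoreceptor release (0.44 ± 0.09, edgeR adjusted p = 0.00516), and Rgs11, a GTPase activator of its cascade (0.57 ± 0.12, edgeR adjusted p = 0.004), were higher, whereas Rgs7, a parallel GTPase activator, was lower (-0.53 ± 0.09, edgeR adjusted p = 0.00099). These 3 calls were lost when the GC trend was removed (edgeR adjusted p = 0.224, 0.207 and 0.794). Trpm1, the channel that the cascade closes, averaged 275 ± 32.7 CPM in vehicle libraries and 282 ± 22.4 CPM in wild type (SD, n = 4 each; edgeR adjusted p = 0.328) and was named after its value was seen. Cone bipolar genes held 5 higher and 0 lower of 14, or 3 and 0 with the GC trend removed. Their called share of 35.7% lay near the 33.9% of all genes, so the list did not stand apart in its count. Fezf2, a transcription factor of cone bipolar subtypes, had 17.1, 14.4, 13.2 and 14.8 CPM in vehicle libraries, against 5.33, 5.17, 6.44 and 9.62 CPM in wild type (1.07 ± 0.18, edgeR adjusted p = 0.0012), with no overlap.

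Horizontal and ganglion cell genes were called no more often than all genes (28.6% and 29.4%, against 33.9%), and those called were lower. Calb1, the calcium buffer of horizontal and some amacrine cells, had 58.0, 67.9, 56.3 and 61.1 CPM in vehicle libraries, against 143, 130, 133 and 85.0 CPM in wild type (-1.10 ± 0.14, edgeR adjusted p = 0.000123). Calb1 groups did not overlap, and it was 1 of 2 lower genes among 7 horizontal cell genes. Of 17 ganglion cell genes 5 were lower and 0 higher, or 6 lower and 4 higher without wild type F4, and 7 lower and 0 higher, with a median of -0.31 in place of -0.0283, with the GC trend removed. Slc17a6, the vesicular glutamate transporter of ganglion cells, had 85.1, 77.9, 82.8 and 86.0 CPM in vehicle libraries, against 142, 139, 147 and 91.4 CPM in wild type (-0.74 ± 0.12, edgeR adjusted p = 0.00099). Nefl, the light neurofilament (-0.68 ± 0.11, edgeR adjusted p = 0.000625), and Pou4f2, a transcription factor of ganglion cell fate (-0.58 ± 0.14, edgeR adjusted p = 0.00983), fell too, without overlap; of the 50-base sequences of Nefl, 31.8% also occur in the overlapping gene Nefm. Amacrine genes changed in both directions, with 4 higher and 3 lower of 22 (5 and 6 without wild type F4, 1 and 4 with the GC trend removed).

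Inhibitory receptor genes leaned downward. Of 23 subunits of GABA and glycine receptors 13 were lower and 1 higher, with a median of -0.403 (15 and 4 without wild type F4). Their sums were 1392, 1395, 1208 and 1417 CPM in vehicle libraries, against 1696, 1561, 1749 and 1241 CPM in wild type, so that wild type F4 lay inside the vehicle range. Gabrr1, a subunit of the GABA-C receptor of bipolar cells, fell without overlap (-0.36 ± 0.09, edgeR adjusted p = 0.0117). With the GC trend removed, 4 subunits were lower and 1 higher, and the median was -0.0738.

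Amine genes held some of the largest changes outside the photoreceptor gene lists. Of 25 catecholamine and histamine genes 5 were higher and 6 lower, or 2 and 6 with the GC trend removed. Hdc, histidine decarboxylase, the enzyme that makes histamine (chr2:126593667-126619299), had 0.549, 1.19, 1.96 and 0.757 CPM in vehicle libraries, against 27.7, 34.2, 29.7 and 37.0 CPM in wild type (-4.96 ± 0.28, edgeR adjusted p = 1.85e-08). Slc6a2, the noradrenaline transporter (chr8:92960079-93001667), had 13.2, 9.42, 12.6 and 8.7 CPM in vehicle libraries, against 0.814, 0.182, 1.63 and 0.606 CPM in wild type (3.67 ± 0.43, edgeR adjusted p = 5.61e-05). Both genes separated the groups by a wide margin in every library. Adrb1, the beta-1 adrenergic receptor, had 16.1, 13.3, 11 and 14.4 CPM in vehicle libraries, against 26.8, 25.4, 20.9 and 35.5 CPM in wild type (-1.08 ± 0.17, edgeR adjusted p = 0.000826). Adra1d, an alpha-1 adrenergic receptor, had 5.97, 5.67, 4.13 and 6.12 CPM in vehicle libraries, against 1.7, 1.95, 2.02 and 3.9 CPM in wild type (1.10 ± 0.27, edgeR adjusted p = 0.00844), a call lost with the GC trend removed (edgeR adjusted p = 0.148). The groups did not overlap for either receptor.

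Genes of glial stress that passed the test were mostly higher. Of 23 genes for gliosis, endothelin and LIF-STAT3 signalling 9 were higher and 2 lower, with a median of 0.509 (7 and 0, and a median of 0.181, with the GC trend removed). Edn2, an endothelin that stressed photoreceptors release, had 41.0, 32.9, 127 and 39.0 CPM in vehicle libraries, against 5.85, 2.31, 3.77 and 4.24 CPM in wild type (3.80 ± 0.41, edgeR adjusted p = 2.51e-05). Gfap, the filament of reactive Müller glia and astrocytes, had 57.7, 38.7, 96.8 and 65.7 CPM in vehicle libraries, against 27.4, 16.0, 16.5 and 22.5 CPM in wild type (1.56 ± 0.23, edgeR adjusted p = 0.000478). Vehicle M4 was the highest library for both genes, and no vehicle value fell inside the wild-type range. Stat3, the signal transducer of this pathway (0.86 ± 0.09, edgeR adjusted p = 2.03e-05), and Osmr, the oncostatin M receptor (0.65 ± 0.12, edgeR adjusted p = 0.00267), rose with groups that did not overlap. The Müller glia list held 7 higher and 0 lower of 16, and 9 missed the threshold. Without wild type F4 10 were higher and 2 lower, and with the GC trend removed 6 and 1. The higher genes included Crym, a thyroid hormone binding protein (0.89 ± 0.16), Car14, a carbonic anhydrase (0.62 ± 0.12), and Prdx6, a peroxiredoxin (0.57 ± 0.11; edgeR adjusted p between 0.00157 and 0.00256).

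Most growth factor genes did not pass the test, with 2 higher and 5 lower of 20, or 7 and 6 without wild type F4 and 1 and 3 with the GC trend removed. Bdnf, the brain-derived neurotrophic factor, had 10.3, 6.79, 7.33 and 7.69 CPM in vehicle libraries, against 14.9, 13.3, 16.6 and 12.4 CPM in wild type (-0.92 ± 0.16, edgeR adjusted p = 0.0016). Fgf12, a fibroblast growth factor homologue that binds sodium channels, had 81.2, 80.1, 76.9 and 82.1 CPM in vehicle libraries, against 169, 154, 170 and 90.6 CPM in wild type (-0.96 ± 0.16, edgeR adjusted p = 0.000857). In wild type F4 the level of Fgf12 was close to the vehicle group, though still above it.

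Immune genes did not move as a block. Of 18 microglia and macrophage genes 3 were higher and 0 lower, below the share of all genes called, and Csf1r, the receptor microglia need to survive, had 18.2, 21.7, 14.6 and 13.9 CPM in vehicle libraries, against 9.62, 10.8, 10 and 9.96 CPM in wild type (0.67 ± 0.15, edgeR adjusted p = 0.0063). The groups did not overlap, and the call was lost with the GC trend removed (edgeR adjusted p = 0.12). In the complement list 5 of 15 genes were higher and 1 lower (3 and 1 with the GC trend removed). C4b, a complement component, averaged 36.8 ± 13.5 CPM in vehicle libraries and 12.1 ± 8.04 CPM in wild type (SD, n = 4 each; 1.52 ± 0.43, edgeR adjusted p = 0.0163), with vehicle F2 at 17.2 CPM inside the wild-type range, 34.6% of its 50-base sequences shared with C4a and the call lost without wild type M2 (edgeR adjusted p = 0.0523). Cd59a, an inhibitor of complement lysis, had 39.7, 51.5, 23.2 and 38.5 CPM in vehicle libraries, against 71.2, 72.1, 71.6 and 62.8 CPM in wild type (-0.94 ± 0.25, edgeR adjusted p = 0.0129).

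Most interferon-stimulated genes were lower, and 1 wild-type library carried much of the difference. Of 30 genes 19 were lower and 0 higher, with a median of -0.862 (12 and 0, and a median of -0.745, with the GC trend removed). Their sums were 212, 184, 198 and 199 CPM in vehicle libraries, against 238, 226, 210 and 473 CPM in wild type. Ifit1, an interferon-induced RNA-binding protein, had 1.65, 1.78, 1.31 and 1.2 CPM in vehicle libraries, against 6.14, 4.32, 4.17 and 22.9 CPM in wild type (-2.74 ± 0.51, edgeR adjusted p = 0.00226). Wild type F4 was the highest library for the sum and for Ifit1. Without it 15 of the list were lower and 0 higher, with a median of -0.406, and Ifit1 had a log2 fold change of -1.79. Sp100, a nuclear body protein (-1.23 ± 0.25, edgeR adjusted p = 0.00394), and Mx2, an antiviral GTPase (-1.83 ± 0.44, edgeR adjusted p = 0.00819), fell with groups that did not overlap, though the level of Mx2 stayed under 2 CPM in every library.

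Outside these lists of immune cells, Il18, a cytokine of the inflammasome pathway, rose in every vehicle library. It had 18.4, 18.7, 20.2 and 18.7 CPM in vehicle libraries, against 6.07, 6.5, 5.27 and 5.72 CPM in wild type (1.6 ± 0.11, edgeR adjusted p = 2.74e-07). Cell death genes moved both ways, with 5 higher and 3 lower of 23 (9 and 5 without wild type F4, 1 and 4 with the GC trend removed). Bcl2, which protects cells from apoptosis, had 13.7, 13.9, 14.4 and 9.59 CPM in vehicle libraries, against 32.6, 29.5, 39.8 and 24.9 CPM in wild type (-1.39 ± 0.16, edgeR adjusted p = 5.45e-05). Every vehicle library thus lay below every wild-type library for Bcl2. Tnfrsf1a, the tumor necrosis factor receptor, averaged 12.8 ± 1.62 CPM in vehicle libraries and 6.75 ± 1.53 CPM in wild type (SD, n = 4 each; 0.83 ± 0.18, edgeR adjusted p = 0.00537).

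Transcripts typical of the pigment epithelium, a layer that the dissection leaves in the eye cup, were more abundant in vehicle libraries. The list, from which Rpe65 was left out, held 8 higher and 0 lower of 15, with a median of 1.08. Its sums were 336, 639, 245 and 268 CPM in vehicle libraries, against 126, 180, 116 and 137 CPM in wild type. Vehicle F2 was the highest library, and without it 8 genes were higher and 0 lower, with a median of 0.647. Clic6, a chloride channel protein, had 18.3, 19.1, 18.9 and 18.9 CPM in vehicle libraries, against 6.29, 6.81, 5.21 and 5.52 CPM in wild type (1.57 ± 0.13, edgeR adjusted p = 8.86e-07). Krt18, a keratin of simple epithelia, had 85.8, 64.9, 72.1 and 84.1 CPM in vehicle libraries, against 28.3, 35.3, 22 and 35.1 CPM in wild type (1.26 ± 0.14, edgeR adjusted p = 2.54e-05). Neither gene followed the high sum of vehicle F2. Slc16a8, the lactate transporter of the basal membrane, had 13, 23.8, 5.51 and 13 CPM in vehicle libraries, against 2.29, 2.31, 1.24 and 4.1 CPM in wild type (2.40 ± 0.41, edgeR adjusted p = 0.00127). Rdh5, the dehydrogenase that oxidises 11-cis-retinol, had 10.5, 26.7, 8.27 and 8.58 CPM in vehicle libraries, against 1.85, 5.41, 3.38 and 4.37 CPM in wild type (1.76 ± 0.37, edgeR adjusted p = 0.00457). Both were highest in vehicle F2 and still separated the groups. Melanin synthesis genes, which the same layer expresses, summed to 112, 122, 38.2 and 31.3 CPM in vehicle libraries, against 60.8, 80.5, 39.6 and 51.8 CPM in wild type, and 0 of 7 passed the test (edgeR). The part of carried-over epithelium in these values was not tested. Rlbp1, the retinaldehyde-binding protein that Müller glia share with the pigment epithelium, was also higher (0.53 ± 0.12, edgeR adjusted p = 0.00659), without overlap.

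Collagen genes were the largest group outside the photoreceptor gene lists to move mostly in 1 direction, with 21 higher and 1 lower of 37 and a median of 0.83. Their sums were 994, 686, 924 and 975 CPM in vehicle libraries, against 469, 437, 432 and 652 CPM in wild type. The sums did not overlap, although vehicle F2 and wild type F4 lay close together. With the GC trend removed 11 were higher and 1 lower, with a median of 0.469. Col24a1, a fibrillar collagen, had 14.7, 11.3, 9.43 and 11.5 CPM in vehicle libraries, against 1.26, 1.52, 2.73 and 1.01 CPM in wild type (2.74 ± 0.30, edgeR adjusted p = 2.44e-05), and lies 14.3 Mb from Rpe65 on the same chromosome. Col6a1, a chain of the microfibrillar collagen VI, had 75.3, 52.7, 56.7 and 58.5 CPM in vehicle libraries, against 22.7, 31.3, 22.7 and 32.4 CPM in wild type (1.07 ± 0.13, edgeR adjusted p = 9.16e-05). Col5a3 (1.70 ± 0.27, edgeR adjusted p = 0.000725) and Col11a2 (1.10 ± 0.19, edgeR adjusted p = 0.0015), both fibrillar, rose as well, and the log2 fold change of Col11a2 shrank to 0.44 with the GC trend removed. The groups did not overlap for any of these chains. The 1 lower chain, the basement membrane collagen Col4a6, was named after its values were seen. It had 1.04, 0.856, 2.03 and 0.82 CPM in vehicle libraries, against 4.81, 3.47, 3.19 and 19.9 CPM in wild type (-2.82 ± 0.58, edgeR adjusted p = 0.00415), and -1.78 without wild type F4.

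In energy metabolism a minority of each gene list passed the test. Of 25 genes for glycolysis and lactate 3 were higher and 4 lower, with a median of -0.00556, and 12 were higher and 5 lower without wild type F4, and 0 and 7 with the GC trend removed. Hk2, hexokinase 2, the form that photoreceptors use to begin glycolysis, had 220, 273, 246 and 204 CPM in vehicle libraries, against 407, 411, 439 and 418 CPM in wild type (-0.92 ± 0.12, edgeR adjusted p = 0.000139). Pfkfb3, which makes the activator of phosphofructokinase, had 31.9, 32.0, 28.1 and 31.0 CPM in vehicle libraries, against 46.0, 41.9, 38.7 and 48.5 CPM in wild type (-0.60 ± 0.11, edgeR adjusted p = 0.00206). The lowest wild-type value of each gene lay above the highest vehicle value. Of 19 genes of the tricarboxylic acid cycle 3 were higher and 4 lower (6 and 5 without wild type F4, 2 and 1 with the GC trend removed), and Idh3a, the catalytic subunit of the NAD-dependent isocitrate dehydrogenase, fell without overlap (-0.42 ± 0.09, edgeR adjusted p = 0.00414). Nuclear genes for complex I held 4 higher and 1 lower of 34, or 15 and 6 without wild type F4 and 1 and 4 with the GC trend removed.

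Cytosolic ribosomal protein genes held 2 higher and 7 lower of 72. Without wild type F4, where 55.6% of all genes were called, 39 were higher and 8 lower. With the GC trend removed 2 were higher and 14 lower. Rpl30, a protein of the large subunit, had 31.8, 43.6, 60.9 and 26.6 CPM in vehicle libraries, against 82.8, 75.5, 76.5 and 71.2 CPM in wild type (-1.0 ± 0.20, edgeR adjusted p = 0.00306). Rpl29, from the same subunit, had 32.8, 89.8, 30.4 and 36.8 CPM in vehicle libraries, against 103, 120, 91.5 and 152 CPM in wild type (-1.37 ± 0.31, edgeR adjusted p = 0.00608). Vehicle F2 came within reach of the wild-type range for Rpl29 while the other vehicle libraries stayed far below. Reads of such genes can be split with copies elsewhere, and 28.7% of the 50-base sequences of Rpl30 and 35.5% of those of Rpl29 occur in transcripts of other genes.

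Cholesterol synthesis and uptake genes held 4 higher and 6 lower of 25, 0 higher and 6 lower with the GC trend removed and 8 higher and 9 lower without wild type F4. Sc5d, the sterol desaturase of the late pathway, had 43.5, 51.7, 43.5 and 44.0 CPM in vehicle libraries, against 91.7, 87.4, 83.4 and 61.0 CPM in wild type (-0.91 ± 0.13, edgeR adjusted p = 0.000348). Hsd17b7, a sterol ketone reductase (-1.0 ± 0.14, edgeR adjusted p = 0.000348), and Cyp51, the lanosterol demethylase (-0.61 ± 0.11, edgeR adjusted p = 0.00179), fell as well. The groups did not overlap for any of these 3 enzymes.

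Of 18 chaperone genes of the cytosol 7 were lower and 0 higher, with a list median of -0.00756, and 7 were lower and 5 higher without wild type F4. Hspa8, the constitutive chaperone of the Hsp70 family, had 588, 596, 525 and 501 CPM in vehicle libraries, against 830, 890, 914 and 887 CPM in wild type (-0.76 ± 0.08, edgeR adjusted p = 2.65e-05). Hsp90aa1, an Hsp90 chaperone, had 1507, 1728, 1419 and 1513 CPM in vehicle libraries, against 2738, 2606, 2868 and 1867 CPM in wild type (-0.80 ± 0.13, edgeR adjusted p = 0.00103). Of their 50-base sequences 39.4% and 47.5% are shared with other genes, mainly processed copies. Hspa4l, which exchanges the nucleotide of Hsp70, fell too (-0.82 ± 0.16, edgeR adjusted p = 0.00273), with wild type F4 at 467 CPM inside the vehicle range of 399 to 500 CPM. Of 26 genes of the unfolded protein response 5 were lower and 1 higher (6 and 7 without wild type F4), and Hsp90b1, the Hsp90 of the endoplasmic reticulum, fell without overlap (-0.73 ± 0.14, edgeR adjusted p = 0.00227). Of 30 antioxidant genes 8 were higher and 2 lower, a called share of 33.3% that lay near the 33.9% of all genes, and 18 were higher and 4 lower without wild type F4. Gsr, glutathione reductase (0.72 ± 0.12, edgeR adjusted p = 0.000956), and Gsta4, a glutathione transferase that clears lipid aldehydes (0.56 ± 0.12, edgeR adjusted p = 0.00454), rose without overlap.

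Genes that follow activity and calcium changed singly. Of 19 immediate early genes 2 were higher and 4 lower, or 5 and 3 without wild type F4 and 0 and 7 with the GC trend removed. Nr4a1, an orphan nuclear receptor induced by depolarisation, had 10.5, 12, 10.4 and 16.5 CPM in vehicle libraries, against 22.4, 22.1, 22.4 and 32.6 CPM in wild type (-1.10 ± 0.20, edgeR adjusted p = 0.00225). Calcium genes held 4 higher and 7 lower of 30 (9 and 9 without wild type F4, 2 and 4 with the GC trend removed). Camk2a, a calcium and calmodulin dependent kinase of synapses, had 62.0, 56.4, 72.0 and 61.0 CPM in vehicle libraries, against 33.6, 31.5, 33.9 and 36.3 CPM in wild type (0.80 ± 0.10, edgeR adjusted p = 8.15e-05). Itpr2, an inositol trisphosphate receptor that releases stored calcium, had 16.7, 15.2, 16.7 and 16.8 CPM in vehicle libraries, against 23.8, 26.0, 25.2 and 23.1 CPM in wild type (-0.68 ± 0.10, edgeR adjusted p = 0.000416). In all of these genes the groups were separate. Cell cycle genes, of which 10 were tested, held 3 lower and 0 higher. Spc25, a kinetochore subunit, led them with 18.5, 18.4, 15.6 and 18.4 CPM in vehicle libraries, against 173, 149, 168 and 106 CPM in wild type (-3.16 ± 0.15, edgeR adjusted p = 1.43e-09), one of the tightest vehicle groups among the strongly lower genes.

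The genes with the largest changes were mostly not retinal markers. Sox30, a transcription factor of the male germ line, had 35.8, 21.8, 21.4 and 20.5 CPM in vehicle libraries, against 1.78, 1.22, 0.846 and 0.807 CPM in wild type (4.33 ± 0.27, edgeR adjusted p = 4.25e-08). Tmem26, a membrane protein, had 51.8, 23.8, 34.0 and 41.2 CPM in vehicle libraries, against 2.74, 2.31, 3.06 and 2.83 CPM in wild type (3.69 ± 0.21, edgeR adjusted p = 2.53e-08). Vehicle F1 was the highest library for both. Trim43b had 8.17, 5.6, 0.0725 and 9.52 CPM in vehicle libraries, against 0, 0, 0.0651 and 0 CPM in wild type (7.81 ± 1.93, edgeR adjusted p = 0.00979), so that vehicle M4 held 1 count, as did wild type F3. Of its sequence, 47.7% of 50-base stretches are shared with related genes. Ttc34 (3.55 ± 0.25), Lipo2, a lipase-like gene with 44.2% of 50-base sequences shared (3.30 ± 0.43), and Tmem72 (2.92 ± 0.42) were also among the higher genes of known name (edgeR adjusted p between 2.05e-07 and 0.000328).

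On the lower side, Etnppl, an enzyme that degrades phosphoethanolamine, had 4.81, 2.24, 3.05 and 4.23 CPM in vehicle libraries, against 21.8, 21.9, 21.6 and 20.1 CPM in wild type (-2.66 ± 0.23, edgeR adjusted p = 1.94e-06). Tmem267, a membrane protein, had 3.23, 4.15, 1.38 and 1.51 CPM in vehicle libraries, against 17.0, 28.7, 16.8 and 9.55 CPM in wild type (-2.88 ± 0.43, edgeR adjusted p = 0.000456). Wild-type levels were thus even for Etnppl and spread widely for Tmem267. The olfactory receptor gene Olfr1417 (-3.06 ± 0.47, edgeR adjusted p = 0.000579) and the pseudogene Olfr1372-ps1 (-3.10 ± 0.28, edgeR adjusted p = 2.88e-06), which overlaps Gm26551, completed the lower genes that earlier paragraphs did not describe.

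**Figure D4:**
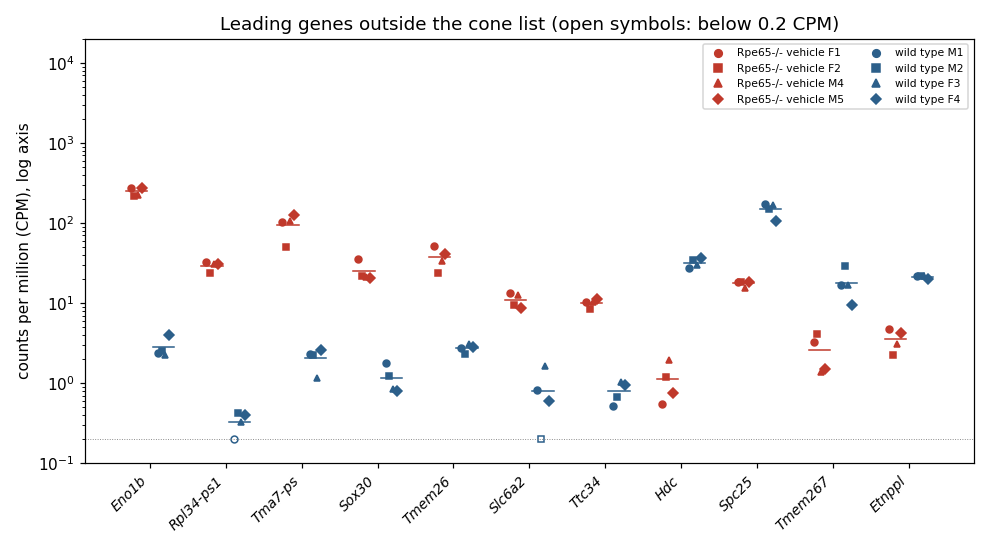
CPM of 11 genes with large changes outside the cone list in each library on a log axis, with the Rpe65-/- vehicle libraries (red, left) and the wild-type libraries (blue, right) side by side and a line at each group mean; open symbols on the dotted line stand for lower values. Eno1b lies at 218 to 277 CPM in vehicle libraries and at 2.28 to 3.97 CPM in wild-type libraries, and Hdc at 0.549 to 1.96 CPM in vehicle and 27.7 to 37.0 CPM in wild-type libraries.

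Several of the highest fold changes belonged to near-identical copies of abundant genes. Eno1b, an intronless copy of the enolase gene Eno1, had 277, 218, 224 and 274 CPM in vehicle libraries, against 2.37, 2.55, 2.28 and 3.97 CPM in wild type (6.38 ± 0.16, edgeR adjusted p = 4.07e-13), and shares 85.2% of its 50-base sequences with other genes. The pseudogene Gm4735, named after its values were seen and sharing 96%, had 311, 306, 274 and 297 CPM in vehicle libraries, against 1.48, 1.46, 1.89 and 1.82 CPM in wild type. Added to Eno1, also named after its values were seen, they gave sums of 2110, 1915, 1821 and 2030 CPM in vehicle libraries, against 1611, 1615, 1424 and 2247 CPM in wild type, which overlap. Rpl34-ps1, all of whose 50-base sequences (100%) are shared, had 32.4, 24.0, 30.5 and 30.5 CPM in vehicle libraries, against 0.148, 0.426, 0.325 and 0.404 CPM in wild type (6.34 ± 0.19, edgeR adjusted p = 4.66e-12). Its parent Rpl34, a large-subunit protein, had 31.1, 26.9, 30.5 and 27.1 CPM in vehicle libraries, against 74.0, 74.6, 76.6 and 100 CPM in wild type (-1.58 ± 0.11, edgeR adjusted p = 2.62e-07). The pair together summed to 63.5, 50.9, 61 and 57.6 CPM in vehicle libraries, against 74.2, 75, 76.9 and 101 CPM in wild type, so that the copy made up part of what the parent lacked and the sums did not overlap. For Tma7-ps (5.43 ± 0.32, edgeR adjusted p = 2.53e-08; 68.5% shared) and its parent Tma7, named after its values were seen (-0.74 ± 0.11, edgeR adjusted p = 0.00043), the sums were 534, 572, 528 and 559 CPM in vehicle libraries, against 748, 751, 729 and 636 CPM in wild type. Counts of such copies and parents are therefore uncertain one by one.

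Changes of at least 4-fold were spread unevenly over gene classes. They made up 0.668% of 13914 protein-coding genes, against 9.86% of 355 processed pseudogenes, of which 33 were higher and 2 lower, and 8.71% of 528 pseudogenes of all kinds. Among genes that passed the test, 13 had 0 counts in all wild-type libraries and 2 had 0 counts in all vehicle libraries. The genes without vehicle counts included Btg4, a regulator of maternal RNA decay in oocytes, with 0 counts in each vehicle library, against 15, 17, 35 and 15 in wild type; it was named after its values were seen. On the chromosome of Rpe65, 39 of 80 tested genes within 20 Mb were called (48.8%, against 33.9% of all genes) and 10 changed at least 2-fold (12.5%, against 5.1% of all genes). Depdc1a, 0.104 Mb from Rpe65, had 28, 24, 24 and 15 counts in vehicle libraries, against 0, 0, 0 and 0 in wild type, and shares 60.8% of its 50-base sequences with Gm5596. Gbp2b, an interferon-inducible GTPase 17 Mb away, had 76, 65, 57 and 71 counts in vehicle libraries, against 0, 0, 0 and 0 in wild type. Both were named after their values were seen. Whether sequence differences between the strains affect the mapping of reads at these genes was not tested.

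The direction of many small changes followed the GC content of the transcripts. Split into 5 groups of 3342 or 3343 genes by GC content, the median log2 fold change was -0.434 in the GC-poorest group, followed by -0.199, 0.00103, 0.215 and, in the GC-richest group, 0.444. In the GC-richest group 1365 genes were higher and 52 lower, and in the GC-poorest group 49 were higher and 1589 lower. The mean level of the GC-richest genes, as log2 CPM centred on each gene's mean over all 13 libraries, was 0.329, 0.121, 0.243 and 0.311 in vehicle libraries, against -0.384, -0.33, -0.493 and 0.283 in wild type, so that wild type F4 lay within the vehicle range. Its part in the results was not tested beyond removing the trend, after which the 5 medians lay between -0.0443 and 0.00132. Of the 5697 genes, 2290 were among the 3261 called after the removal, and 5647 were among the 9508 called without wild type F4.

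**Figure D5:**
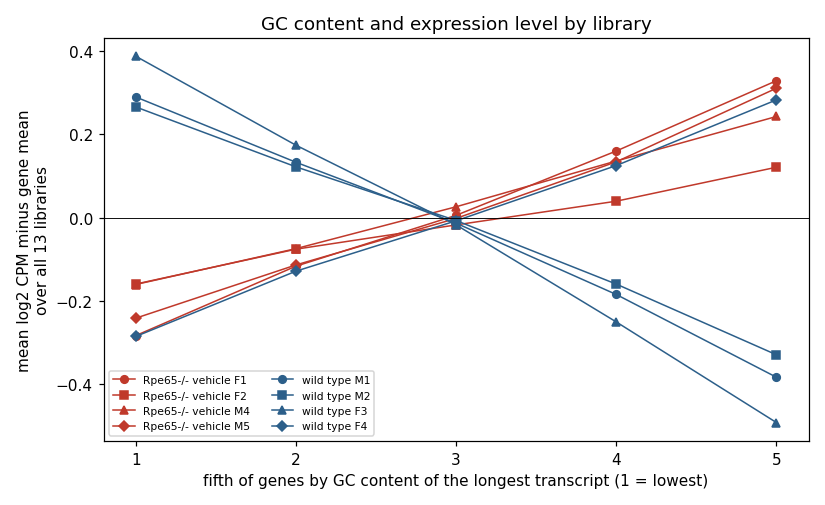
Mean level of the genes in each of 5 groups by GC content, from GC-poorest to GC-richest, as log2 CPM centred on each gene's mean over all 13 libraries, 1 line for each library, with Rpe65-/- vehicle in red and wild type in blue. The vehicle lines climb, that of vehicle F1 between -0.284 and 0.329, the other wild-type lines fall, and that of wild type F4 runs between -0.286 and 0.283 in the same direction as the vehicle lines.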

How the data were processed

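RNA was extracted from single retinas and sequenced in bulk. The authors trimmed and aligned the reads to GRCm38, counted them per gene and deposited raw whole-number counts of 29700 nuclear genes, with mitochondrial genes in a table of their own that was not used here. The submitters' processing notes name FastQC, Trimmomatic, STAR, HTSeq and DESeq2. The strand setting of the counting was not found in the labels or methods. Of the listed genes, 97.2% had the same coordinates in GENCODE M21, which gave gene classes, GC content and transcript sequences. The 4 columns that repeat the wild-type libraries were not used, and neither were the columns of fold changes and p-values from the authors' own comparisons.

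Counts were tested with edgeR 4.0.16 (R 4.3.3) by a quasi-likelihood F test after TMM normalisation and filtering by expression, in 1 fit of all 13 libraries with 3 groups, the third being Rpe65-/- mice on drug, which only added to the estimate of the spread. P-values were adjusted by Benjamini-Hochberg over 16782 genes and called under 0.05. Standard errors were derived from the F statistic. CPM are counts over the total nuclear counts of the library and are not scaled for gene length or by the TMM factors. Means and sums of CPM are given with n = 4 libraries per group. Intervals from counting alone were not needed beside these replicates, and limits set by 3 counts cover counting error only. The GC trend was a cubic in gene GC content, fitted per library over 16711 genes and entered as an offset. Shared sequence is the share of a gene's 50-base transcript sequences that also occur in a transcript of another gene. Promoters came from RefSeq (GRCm38.p6). The fits were also run on simulated counts with a fixed spread. These had no added GC trend and no outlying library, so they did not test the fits under those features.

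Named genes were Rpe65, the 12 genes per direction with the largest change among called genes whose groups did not overlap and whose mean reached 5 CPM in at least 1 group, as many as 4 genes of each of 54 lists with the smallest adjusted p, and the cone and rod pairs. Some genes that this rule selects are not reported here. The largest changes passed over 8 higher and 10 lower genes that had provisional symbols or lay on sex chromosomes. The lists and the genes to describe were chosen with earlier results of these data known. Other settings tried were a DESeq2 1.42.0 fit, limma-trend (limma 3.58.1), other size factors, other filters, only the 8 libraries, sex or the replicate number as a term, removal of the GC trend, a test against a fold change of 1.2 and each library left out in turn.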

Additional observations from a re-analysis of the deposited data

Results flagged for a closer look

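Single libraries stood apart from the other 3 of their group (Dixon's test on log2 CPM) in 34 of 238 groups of 4, where chance gives about 1 in 20. Most of them were wild type F4 or vehicle F2. Wild type F4 was high for Gnb3 (314 CPM), Gngt2 (43.3 CPM), Pde6g (2098 CPM), Cngb1 (1247 CPM), Nrl (2243 CPM), Rdh8 (109 CPM), Nr4a1 (32.6 CPM) and Eno1b (3.97 CPM). It was low for Cngb3 (18.8 CPM), Neurod1 (333 CPM), Stx3 (789 CPM), Slc17a6 (91.4 CPM), Cd59a (62.8 CPM), Hsp90b1 (218 CPM), Etnppl (20.1 CPM) and Tma7 (634 CPM). Vehicle F2 was high for Gnat1 (12163 CPM), Gnb1 (7133 CPM), Pde6a (3104 CPM), Pde6g (1753 CPM), Stx3 (677 CPM), Sc5d (51.7 CPM) and Tma7 (522 CPM), and low for C4b (17.2 CPM).

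Vehicle M4 was high for Edn2 (127 CPM) and low for Kcne2 (16.2 CPM), Adra1d (4.13 CPM) and Trim43b (0.0725 CPM). Vehicle M5 was low for Bcl2 (9.59 CPM) and Depdc1a (0.946 CPM), and vehicle F1 was high for Sox30 (35.8 CPM). Wild type M1 was high for Gnb1 (6573 CPM), and wild type F3 for Btg4 (2.28 CPM) and Trim43b (0.0651 CPM, from 1 count).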

How the results depend on the processing

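The number of genes changed was 5697. It stayed within 1.5 times of this with DESeq2 (6323), limma-trend (5917), DESeq2-type size factors (5685) and a minimum mean of 100 counts (5034). The same held with low counts left unfiltered (4913) and with sex as a covariate (5353), which entered vehicle F2 as female by its label. The number fell to 3261 with the GC trend removed, 2861 in a fit of only the 8 libraries and 1636 against a fold change of 1.2. It reached 9521 without vehicle F2 and wild type F4. Leaving out 1 library gave 2849 to 9508. The cause of these shifts was not tested. Fits with 1 library left out also held fewer libraries. With the replicate number as a block the count was 2224, and 2318 with the GC trend removed as well. Deviations of same-numbered libraries correlated at -0.162, 0.252 and 0.0425, and those of differently numbered libraries at -0.297 to 0.258. So few same-numbered pairs cannot decide whether the numbers pair the mice. Calls of Pde6a, Mx2 and Rlbp1 were lost with the block (edgeR adjusted p = 0.0574, 0.0527 and 0.051).

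Most genes named as called were chosen from these same data by the size or adjusted p of their change, which favours stable calls. Of all 5697 genes called, 918 were called in the same direction in all 19 settings. Of the 110 genes named as called in the text, 85 were called in all 19 and 101 in at least 18. With the GC trend removed 5 of these 110 lost their call, and 0 reversed. Against a fold change of 1.2, not among these 19, 11 lost it. Among other genes of the lists, the log2 fold change of Adcy5 turned to -0.080 with the GC trend removed and -0.081 with the block as well, that of Lamp2 to 0.043 and 0.032, and that of Gngt1 to 0.011 and 0.032. Depth left levels under about 0.2 CPM unresolved.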
